A study of Mus musculus with 119 samples.

Results

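The genes described here encode dual-specificity phosphatases that remove phosphate from the threonine and tyrosine of activated MAP kinases. They are Dusp1, Dusp2, Dusp4, Dusp5, Dusp6, Dusp10, and Dusp16, 7 of the 18098 genes in the data, chosen by name. Each was read in macrophages grown from mouse bone marrow (BMDMs), with and without LPS, a ligand of TLR4. All 7 passed the filter on low values in both fits used below.

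MAP kinase phosphatases limit ERK1/2, p38, and JNK signaling, and several of them are induced when these kinases are active, which makes a feedback loop. DUSP1, DUSP2, DUSP4, and DUSP5 are nuclear. DUSP5 acts on ERK1/2 there, whereas DUSP6 is a cytoplasmic phosphatase of ERK1/2, and DUSP10 and DUSP16 act mainly on p38 and JNK. In macrophages given LPS, the kinase TPL-2, encoded by Map3k8, activates MKK1/2 and through them ERK1/2.

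All libraries came from C57BL/6(NIMR) BMDMs, and LPS was given at 100 ng/ml. WT cells had 6 libraries each without LPS and at 0.5 and 1 h, and 4 at 2 h. Cells with the Map3k8[D270A] allele, which encodes TPL-2 without kinase activity, had 6 libraries at each of the same times, and cells lacking the ternary complex factors ELK1 and ELK4 (Elk1-/-Elk4-/-) had 4. Cells with the Nfkb1[SS/AA] allele, whose p105 cannot be phosphorylated by IKK, had 6 libraries each at 0, 0.5, and 1 h. WT cells were also given 0.1 µM PD0325901, an inhibitor of MKK1/2, alone for 10, 40, or 70 min (3 libraries each) or for 10 min before LPS for 0.5 or 1 h (6 libraries each), or DMSO for 10 min (3 libraries). RSKi47, an inhibitor of the ERK-activated kinase RSK, was given to WT cells at 2 µM, with 4, 3, 4, and 4 libraries at 0, 0.5, 1, and 2 h of LPS. No group had DMSO together with LPS. Each of the 12 libraries with PD0325901 and LPS was most like the library of its group numbered 3 apart (1 and 4, 2 and 5, 3 and 6) in its deviations from the group mean, so calls that ended with these pairs averaged (n = 3) are also given.

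Only the D270A libraries carry the experiment label of the WT libraries. For the other mutants and for the inhibitors, genotype or treatment and experiment cannot be told apart. Values are the deposited log2 values, and differences are in these log2 units. No source used here gives the transformation behind them, so differences were not turned into folds. The methods give a typical read yield but no depth per library, so precision rests on the spread between libraries. Adjusted p values are from limma with Benjamini-Hochberg adjustment over all genes tested, and a gene was called at an adjusted p below 0.05.

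In Elk1-/-Elk4-/- cells the group means of Elk1 were 6.25 to 6.36, against 9.05 to 9.40 in WT cells, and those of Elk4 were 5.57 to 5.76 against 7.72 to 8.18. The Map3k8 and Nfkb1 alleles change amino acids, which mRNA levels do not check. The macrophage markers Adgre1 and Csf1r were at least 14.53 and 14.81 in every library. The summed level of 8 macrophage genes was lower in Elk1-/-Elk4-/- libraries than in any WT library of the same time, 18.35 to 18.44 against 18.61 to 18.80 without LPS and 18.64 to 18.71 against 18.87 to 19.001 at 2 h. It was also below WT in D270A libraries at 2 h (18.67 to 18.86) and above WT under RSKi47 at 1 h (18.92 to 18.98 against 18.74 to 18.91) and in Nfkb1[SS/AA] libraries at 0.5 h (18.76 to 19.10 against 18.59 to 18.75). The summed level of 8 neutrophil genes was 10.04 to 11.04 in Elk1-/-Elk4-/- libraries and 6.24 to 7.74 in WT libraries. It was 8.09 to 8.81 under PD0325901 with LPS and 7.08 to 8.59 under RSKi47. All 8 had higher group means in Elk1-/-Elk4-/- than in WT cells. S100a8, S100a9, Ltf, Camp, and Ngp had means of 4.29 to 9.48 against 2.18 to 5.51, and Ly6g, Elane, and Mpo were at most 0.60, 0.95, and 2.23 in any library. The sum of 3 B cell genes was 3.42 to 4.02 in Elk1-/-Elk4-/- and 3.03 to 3.37 in WT libraries, with none of the 3 above 2.74 in any library. The sum of 3 fibroblast genes was 3.81 to 9.04 in RSKi47 libraries and 2.97 to 3.87 in WT libraries. Most of that difference was Col1a1, with group means of 3.77 to 5.55 under RSKi47 and 2.48 to 2.74 in WT cells. Col3a1 and Dcn were at most 2.29 and -0.63 in any library. The part of these genes in the results below was not tested. In bulk RNA, fewer cells with a transcript and less of it per cell cannot be told apart.

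Promoter sequences are shown for the 2 members whose upstream bases held a searched motif. Both are the 250 bases before the start of the gene in RefSeq (GRCm38.p6), 5′ to 3′ on the strand of the gene. Capitals mark the matches: in Dusp5 the CArG box, bound by SRF, the partner of ternary complex factors, and in Dusp1 the CRE (TGACGTCA), bound by CREB and ATF factors. Dusp5 lies on chromosome 19 from 53529145 to 53541809, and its printed bases are chr19:53528895-53529144, plus strand. Dusp1 lies on chromosome 17 from 26505591 to 26508472, and its printed bases are chr17:26508473-26508722, minus strand.
Dusp5: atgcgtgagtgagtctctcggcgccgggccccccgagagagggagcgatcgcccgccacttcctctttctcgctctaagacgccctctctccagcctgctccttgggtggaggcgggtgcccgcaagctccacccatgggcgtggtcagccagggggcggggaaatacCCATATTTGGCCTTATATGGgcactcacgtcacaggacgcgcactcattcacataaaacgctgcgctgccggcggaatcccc
Dusp1: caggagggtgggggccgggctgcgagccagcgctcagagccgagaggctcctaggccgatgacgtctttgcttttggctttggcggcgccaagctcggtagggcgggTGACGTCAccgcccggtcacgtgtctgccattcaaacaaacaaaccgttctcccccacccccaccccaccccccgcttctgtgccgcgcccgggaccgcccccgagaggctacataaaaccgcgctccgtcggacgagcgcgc

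The matches in Dusp5 begin 82 and 72 bases before the start, and that in Dusp1 143 bases before it. With both strands searched, 1.47% of 32851 promoter windows of this length held a CArG box and 1.55% a CRE. Each was found in 1 of the 6 members with a sequence. Also searched were the kappa B consensus (7.25% of windows), AP-1 (TGANTCA, 6.75%), and Ets (CCGGAA, 12%) motifs, found in 0 of the 6. A match describes letters only. Dusp4, on chromosome 8, is named without a sequence.

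LPS raised most of these genes in WT BMDMs, each with its own time course. At 0.5 h, 5 of 7 were higher than without LPS (7.82% of all genes tested were called higher). At 1 h, 6 were higher and 1 lower (23.8% and 23.0% of all genes), and at 2 h 5 were higher and 2 lower (34.7% and 36.8%). The median difference of the members was 1.12, 2.16, and 0.53, and that of all genes -0.0043, 0.00018, and -0.018.

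Dusp1, an immediate early gene whose product acts on p38 and JNK, was 11.76 to 12.01 (median 11.86) without LPS. It was 14.35 to 15.01 (median 14.68) at 0.5 h, 14.39 to 14.61 (median 14.50) at 1 h, and 13.38, 13.40, 13.73, and 13.88 at 2 h. It was thus highest at the earlier times, and no group with LPS overlapped the group without. The difference from no LPS was 2.81 (SE 0.084, adjusted p = 4.29e-34) at 0.5 h, 2.63 at 1 h, and 1.73 at 2 h.

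Dusp2, a nuclear phosphatase found mainly in hematopoietic cells, was 7.73 to 7.85 (median 7.79) without LPS. It was 10.95 to 12.20 (median 11.60) at 0.5 h, 11.73 to 12.16 (median 11.88) at 1 h, and 12.04, 12.34, 12.51, and 12.72 at 2 h. All libraries with LPS lay above all those without. The difference was 4.61 (SE 0.15, adjusted p = 8.04e-34) at 2 h. Dusp2 was also higher at 2 than at 1 h, by 0.49 (adjusted p = 0.00276), with overlapping groups, and after quantile normalization that difference was 0.28 (adjusted p = 0.0746).

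Dusp4 and Dusp5, genes induced by ERK signaling whose products are nuclear, were highest at 1 h. Dusp4 was 9.71 to 9.92 (median 9.74) without LPS and 11.64 to 12.27 (median 11.91) at 1 h, a difference of 2.16 (SE 0.082, adjusted p = 4.43e-30). At 2 h it was 9.87, 9.89, 10.01, and 10.17, which overlapped the values without LPS. That difference was 0.21 (adjusted p = 0.0386), and with the replicate block 0.18 (adjusted p = 0.0508). After quantile normalization it was 0.10 (adjusted p = 0.311). The call was also lost with no filter on low values (adjusted p = 0.0565) and without WT replicate 5, 8 or 9 (0.16 to 0.20).

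Dusp5 was 6.93 to 7.89 (median 7.23) without LPS and 10.57 to 10.87 (median 10.73) at 1 h, a difference of 3.38 (SE 0.17, adjusted p = 5.01e-24). At 2 h it was 7.67, 7.84, 7.95, and 8.03. From 1 to 2 h it changed by -2.85 (SE 0.19, adjusted p = 6.05e-19), without overlap between the groups. At 2 h it was still 0.53 (adjusted p = 0.0127) above no LPS, a call lost without WT replicate 6 (0.45).

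Dusp6, whose product is the cytoplasmic ERK1/2 phosphatase, fell. It was 9.74 to 10.11 (median 9.93) without LPS, 10.11 to 10.26 (median 10.20) at 0.5 h, 8.42 to 8.99 (median 8.60) at 1 h, and 7.34, 7.35, 7.36, and 7.42 at 2 h. All libraries at 1 and 2 h lay below those without LPS. The difference was -1.28 (SE 0.086, adjusted p = 4.19e-19) at 1 h and -2.56 (SE 0.096, adjusted p = 1.55e-30) at 2 h. At 0.5 h it was 0.26 (adjusted p = 0.0378), a call lost without WT replicate 4, 5, 6 or 9, with WT replicates 7 to 9 alone (0.14), and with no filter on low values (adjusted p = 0.0578).

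Dusp16, whose product acts on JNK and p38, rose later. It was 9.08 to 9.31 (median 9.23) without LPS, 9.10 to 9.33 (median 9.25) at 0.5 h, 10.38 to 10.68 (median 10.50) at 1 h, and 10.97, 11.22, 11.24, and 11.39 at 2 h. The groups at 0 and 0.5 h overlapped, with a difference of 0.026 (adjusted p = 0.861), and those at 1 and 2 h lay above both. The difference from no LPS was 1.29 at 1 h and 1.99 (SE 0.062, adjusted p = 3.69e-34) at 2 h.

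Dusp10, whose product has the same targets, was 6.01 to 6.19 (median 6.11) without LPS, 6.25 to 6.46 (median 6.36) at 1 h, and 5.34, 5.43, 5.54, and 5.64 at 2 h. The difference was 0.26 (adjusted p = 0.00497) at 1 h, a call lost with WT replicates 4 to 6 or 7 to 9 alone (0.25 and 0.26). The difference at 2 h was -0.62 (SE 0.087, adjusted p = 8.07e-09), without overlap. From 1 to 2 h of LPS, 5 members fell and 2 rose (31.7% and 33.5% of all genes).

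**Figure D1:**
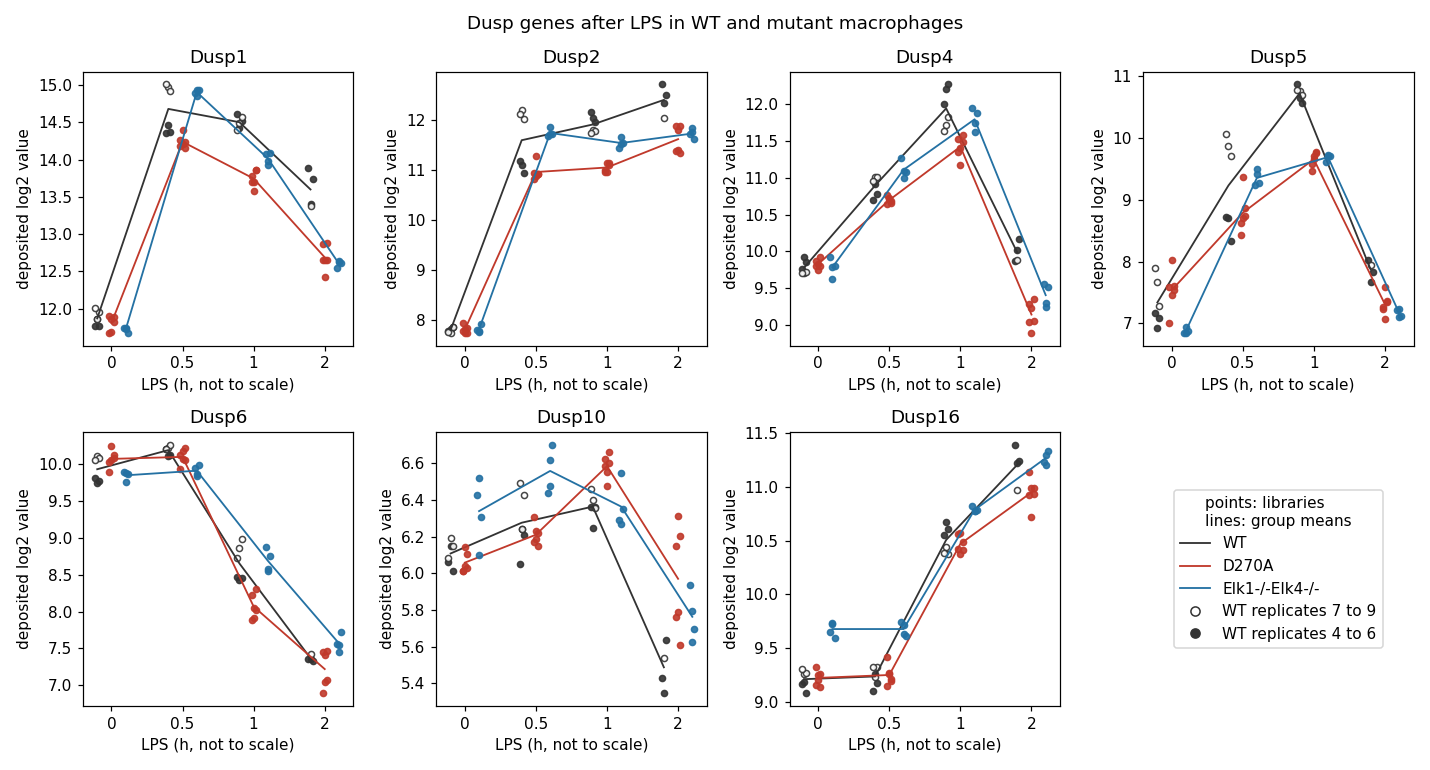
Deposited log2 value of each gene (vertical axis) against hours of LPS (horizontal axis, not to scale) in WT, D270A, and Elk1-/-Elk4-/- BMDMs, with a point per library and lines through group means. Dusp1, Dusp2, and Dusp5 in WT replicates 7 to 9 (open points) lie above replicates 4 to 6 (filled) at 0.5 h.

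The WT libraries differed by replicate number. At 0.5 h Dusp1 was 14.35 to 14.46 in replicates 4 to 6 and 14.91 to 15.01 in replicates 7 to 9. Dusp2 was 10.95 to 11.18 and 12.02 to 12.20, and Dusp5 was 8.34 to 8.72 and 9.71 to 10.06. In all, the sets did not overlap for 5 of 7 members without LPS, 5 at 0.5 h, and 4 at 1 h. The share of all genes apart in this way was not counted, so the split is not read as particular to the members. Without LPS, Dusp6 was 9.74 to 9.81 in replicates 4 to 6 and 10.06 to 10.11 in replicates 7 to 9. At 1 h it was 8.42 to 8.48 and 8.72 to 8.99, and Dusp4, in contrast, was higher in replicates 4 to 6 (12.01 to 12.27) than in 7 to 9 (11.64 to 11.82). Differences from WT are therefore also given against a set of WT replicates that changes a call, and in some cases against both sets.

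Without TPL-2 kinase activity, most of the LPS-induced members were lower at 1 and 2 h, and so was Dusp6 at 1 h. Without LPS, limma called 0 of 7 (0.833% of all genes lower and 0.606% higher), and 0 had an unadjusted p below 0.05. The 95% confidence interval of the difference was -0.15 to 0.54 for Dusp5 and -0.032 to 0.31 for Dusp6. With WT replicates 4 to 6 and D270A replicates 1 to 3 alone, Dusp6 was higher by 0.24 (adjusted p = 0.00811). Here and below, sets of WT and D270A replicates were matched in order of number, and no label ties them together.

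At 0.5 h, 2 of 7 were lower in D270A cells (0.892% of all genes). Dusp1 was 14.15 to 14.40 (median 14.22) and differed by -0.44 (SE 0.084, adjusted p = 0.000672), and Dusp2 was 10.82 to 11.27 (median 10.92) and differed by -0.64 (SE 0.13, adjusted p = 0.00197). Both overlapped with WT, and neither was called with only the groups compared in the fit (adjusted p = 0.169 and 0.288). With WT replicates 4 to 6 and D270A replicates 1 to 3, the differences were -0.21 (adjusted p = 0.202) for Dusp1 and -0.16 (adjusted p = 0.264) for Dusp2. With WT replicates 7 to 9 and D270A replicates 4 to 6 they were -0.67 and -1.11, and Dusp4 (-0.31) and Dusp5 (-0.92) were called as well.

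At 1 h, 5 of 7 were lower in D270A cells (4.64% of all genes), and none of the 5 overlapped with WT. Dusp5 was 9.47 to 9.78 (median 9.68), against 10.57 to 10.87 in WT cells, a difference of -1.06 (SE 0.17, adjusted p = 1.08e-05). Dusp2 was 10.95 to 11.14 (median 11.05) against 11.73 to 12.16, a difference of -0.86 (SE 0.13, adjusted p = 2.27e-06). Dusp1 was 13.58 to 13.86 (median 13.74) against 14.39 to 14.61, a difference of -0.76 (SE 0.084, adjusted p = 8.45e-10).

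Dusp6, which fell in WT cells, was lower still in D270A cells. It was 7.89 to 8.31 (median 8.04) against 8.42 to 8.99, a difference of -0.58 (SE 0.086, adjusted p = 1.11e-06). Dusp4 was 11.18 to 11.58 (median 11.45) against 11.64 to 12.27, a difference of -0.52 (SE 0.082, adjusted p = 5.03e-06). These 5 calls held in each set of replicates. Dusp16 differed by -0.037 (95% confidence interval -0.15 to 0.075). Dusp10 was 6.48 to 6.66 (median 6.59), above every WT library at 6.25 to 6.46, but its difference of 0.22 (adjusted p = 0.0604) did not pass the test. It was 0.28 (adjusted p = 0.00732) with WT replicates 4 to 6 and D270A replicates 1 to 3, 0.16 (adjusted p = 0.176) in the other set, and 0.22 (adjusted p = 0.028) with the set as a term. With only the groups compared it also passed (adjusted p = 0.00654).

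At 2 h, 5 members were lower and 1 higher in D270A cells (13.1% and 14.6% of all genes). Dusp1 was 12.42 to 12.88 (median 12.65), a difference of -0.91 (SE 0.094, adjusted p = 3.31e-11). Dusp4 was 8.89 to 9.36 (median 9.14), a difference of -0.84 (SE 0.091, adjusted p = 1.2e-10), and Dusp2 was 11.34 to 11.88 (median 11.60), a difference of -0.79 (SE 0.15, adjusted p = 2.87e-05). For these 3 genes and Dusp5, all D270A libraries lay below all WT libraries.

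Dusp5 differed at 2 h by -0.56 (adjusted p = 0.0251), and its call was lost without WT replicate 6 or D270A replicate 1. Dusp16, whose difference at 1 h did not pass the test, differed by -0.26 (adjusted p = 0.00115) at 2 h, a call lost with only the groups compared (adjusted p = 0.0874). It was -0.25 with WT replicates 4 to 6 and D270A replicates 1 to 3. The other set has a single WT library at 2 h, replicate 7, so its differences are given as values with no test. They were -0.11 for Dusp16 and -0.54 for Dusp5. Dusp6 differed at 2 h by -0.15 (adjusted p = 0.273), by 0.091 (adjusted p = 0.13) with WT replicates 4 to 6 and D270A replicates 1 to 3, and by -0.42 against WT replicate 7. Dusp10, which fell in WT cells at 2 h, was 5.61 to 6.31 (median 5.97) in D270A cells and higher by 0.48 (adjusted p = 1.62e-05), with overlap. It was 5.61 to 5.79 in D270A replicates 1 to 3, 0.25 above WT replicates 4 to 6, and 6.15 to 6.31 in replicates 4 to 6, 0.68 above WT replicate 7.

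Tested as a difference between responses from 0 to 1 h of LPS, 5 of 7 differed downward between D270A and WT cells (1.56% of all genes). The difference between responses was -1.26 (SE 0.20, adjusted p = 4.19e-06) for Dusp5, -0.87 for Dusp2, -0.72 for Dusp6, -0.69 for Dusp1, and -0.57 for Dusp4. That for Dusp16 was -0.048 (95% confidence interval -0.22 to 0.12).

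In cells lacking ELK1 and ELK4, Dusp5 and Dusp1 were lower at 1 and 2 h of LPS. The background was high: at 1 h 3 members were lower and 1 higher than in WT cells (26.2% and 27.2% of all genes). At 2 h 4 were lower and 1 higher (23.1% and 27.7%). The summed neutrophil and B cell genes given above were higher in all of these libraries than in any WT library.

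In Elk1-/-Elk4-/- cells Dusp5 was 9.62, 9.70, 9.71, and 9.73 at 1 h, against 10.57 to 10.87 in WT cells. The groups did not overlap, and the difference was -1.03 (SE 0.19, adjusted p = 1.49e-05). At 2 h it was 7.10, 7.12, 7.22, and 7.23, a difference of -0.70 (SE 0.21, adjusted p = 0.00495). Dusp1 was 13.92, 13.98, 14.07, and 14.08 at 1 h, a difference of -0.49 (SE 0.094, adjusted p = 2.33e-05). At 2 h it was 12.54, 12.61, 12.62, and 12.63, a difference of -0.996 (SE 0.10, adjusted p = 1.86e-11), and neither time overlapped with WT.

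Dusp2 in Elk1-/-Elk4-/- cells differed by -0.37 (adjusted p = 0.0292) at 1 h and by -0.67 (adjusted p = 0.000413) at 2 h. The call at 1 h was lost without WT replicate 6 or Elk1-/-Elk4-/- replicate 2, 3 or 4 and against WT replicates 7 to 9 (-0.23, adjusted p = 0.0531), while the difference from replicates 4 to 6 was -0.51. Dusp4 was 9.24, 9.31, 9.52, and 9.56 at 2 h, below every WT library, a difference of -0.58 (SE 0.10, adjusted p = 3.26e-06). Dusp6, in contrast to D270A cells, differed by 0.036 at 1 h (95% confidence interval -0.16 to 0.23), or by 0.24 (adjusted p = 0.0397) against WT replicates 4 to 6 and -0.17 against replicates 7 to 9. Dusp4 at 1 h differed by -0.15, by -0.37 (adjusted p = 0.00125) against replicates 4 to 6, and by 0.07 against replicates 7 to 9.

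Without LPS, 1 member was lower and 2 were higher in Elk1-/-Elk4-/- cells (24.6% and 27.2% of all genes). Dusp16 was 9.60, 9.65, 9.72, and 9.74, above every WT library, a difference of 0.47 (SE 0.062, adjusted p = 1.53e-08). It was also higher at 0.5 h (0.44) and 1 h (0.28, and 0.17 against WT replicates 4 to 6), and differed by 0.062 (adjusted p = 0.467) at 2 h. Dusp5 was 6.84, 6.84, 6.87, and 6.95 without LPS and differed by -0.46 (adjusted p = 0.0413). That call was lost against WT replicates 4 to 6 (-0.19) and without WT replicate 7 or 9 or Elk1-/-Elk4-/- replicate 1, 2, 3 or 4. Dusp10 differed by 0.23 (adjusted p = 0.0228), a call lost against WT replicates 7 to 9 (0.20) and without WT replicate 5 or Elk1-/-Elk4-/- replicate 1 or 3 (0.17 to 0.21). Dusp1 differed by -0.15 (adjusted p = 0.182), and was called against WT replicates 7 to 9 (-0.22) and with only the groups compared (-0.15).

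At 0.5 h, 1 was lower and 3 were higher (22.0% and 22.4%). Dusp1, Dusp2, and Dusp5 differed by 0.51, 0.67, and 0.77 against WT replicates 4 to 6 and by -0.062, -0.38, and -0.52 against replicates 7 to 9, so no direction is given for them. The count of 3 higher, made with all WT libraries, includes Dusp1. Dusp6 was lower against either set (-0.24 and -0.32), although its call was lost without Elk1-/-Elk4-/- replicate 4. Dusp4 differed by 0.21 (adjusted p = 0.0516), and was called against replicates 4 to 6 (0.31), with a trend in limma (adjusted p = 0.0491), with only the groups compared (adjusted p = 0.0421), and without WT replicate 7, 8 or 9 or Elk1-/-Elk4-/- replicate 4 (0.23 to 0.25). The call of Dusp10 was lost against replicates 7 to 9 (0.28 became 0.17).

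Tested as a difference between LPS responses at 1 h, limma called 0 of 7 between Elk1-/-Elk4-/- and WT cells (1.05% of all genes lower and 0.476% higher), while 3 had an unadjusted p below 0.05. For Dusp5 the difference was -0.57 (adjusted p = 0.341), and with the replicate block it was -0.57 (adjusted p = 0.0491). Against WT replicates 4 to 6 alone it was -0.82 (adjusted p = 0.00647), and Dusp2 (-0.51) and Dusp16 (-0.36) were also called. Against replicates 7 to 9 these differences were -0.32, -0.26, and -0.014, and none was called.

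Compared directly with D270A cells at 1 h, Elk1-/-Elk4-/- cells had 5 members higher and 1 lower (26.1% and 25.5% of all genes). Dusp6 was higher by 0.62 (SE 0.096, adjusted p = 4.1e-07), Dusp2 by 0.49, and Dusp4 by 0.37. Dusp5 did not pass the test, with a 95% confidence interval of -0.36 to 0.42. At 2 h, 3 were higher and 1 lower (26.4% and 23.2%), and the intervals were -0.27 to 0.10 for Dusp1 and -0.18 to 0.41 for Dusp2.

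**Figure D2:**
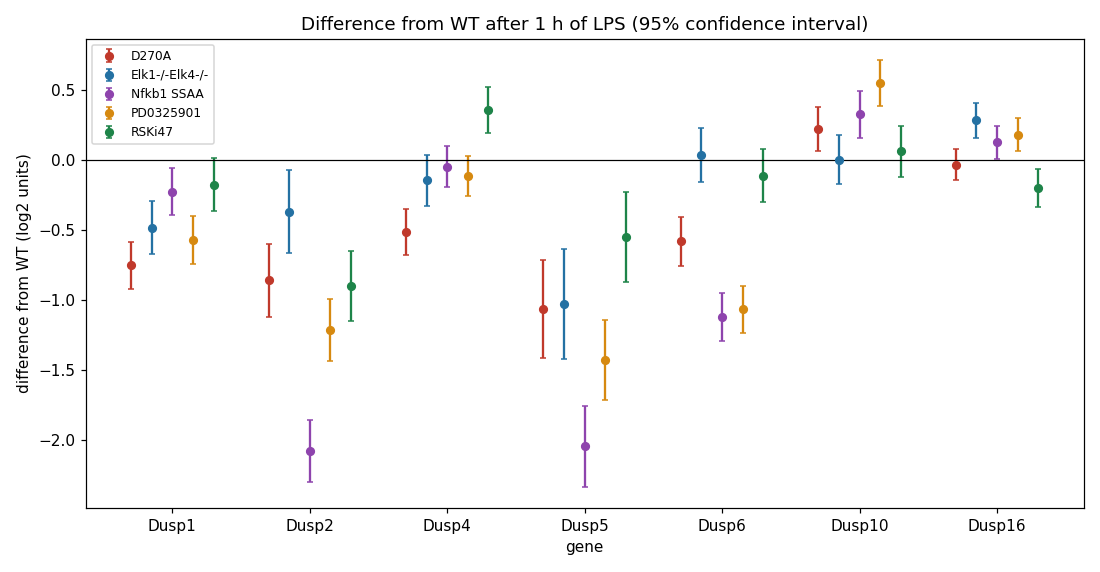
Difference from WT after 1 h of LPS (vertical axis, log2 units, bars are 95% confidence intervals) for each gene (horizontal axis) in the mutants and under the inhibitors. Dusp5 lies below 0 in all 5 groups, from -2.04 to -0.55, and Dusp16 lies between -0.20 and 0.28.

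In Nfkb1[SS/AA] cells at 1 h of LPS, Dusp2, Dusp5, and Dusp6 were far below WT. In all, 4 of 7 were lower and 1 higher (21.9% and 20.5% of all genes). Dusp2 was 9.66 to 10.03 (median 9.78) against 11.73 to 12.16 in WT cells, a difference of -2.08 (SE 0.11, adjusted p = 1.3e-30). From 0.5 to 1 h its mean went from 11.08 to 9.83 in Nfkb1[SS/AA] cells and from 11.60 to 11.91 in WT cells.

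Dusp5 was 8.40 to 8.95 (median 8.70), a difference of -2.04 (SE 0.14, adjusted p = 1.02e-22). Dusp6 was 7.37 to 7.70 (median 7.51), a difference of -1.12 (SE 0.085, adjusted p = 5.75e-21). No library of these 3 genes overlapped with WT. Dusp1 differed by -0.23 (adjusted p = 0.0241), a call lost without Nfkb1 SSAA replicate 1 or 3. Dusp4 differed by -0.051 (95% confidence interval -0.20 to 0.094), and by -0.27 (adjusted p = 0.00595) against WT replicates 4 to 6. Dusp10 was higher by 0.32 (adjusted p = 0.00091). Dusp16 differed by 0.12 (adjusted p = 0.0871). It was called against replicates 7 to 9 (0.23), after quantile normalization (0.13), without WT replicate 4 (0.16), and without Nfkb1 SSAA replicate 2 (0.20), the library in which Dusp16 lay far from its group.

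The LPS response at 1 h differed downward for 3 of 7 (4.30% of all genes), by -2.19 (SE 0.16, adjusted p = 2.95e-21) for Dusp2, -1.30 for Dusp5, and -0.77 for Dusp6. Without LPS, 2 members were lower (15.1%). Dusp5 was 6.49 to 6.81 (median 6.58) and differed by -0.74 (adjusted p = 2.4e-05), or by -0.47 against WT replicates 4 to 6. Dusp6 differed by -0.35 (adjusted p = 0.000659), and by -0.20 (adjusted p = 0.132) against WT replicates 4 to 6. Dusp1 differed by -0.18 (adjusted p = 0.09), and was called against replicates 7 to 9 (-0.26), after quantile normalization (-0.22), and without Nfkb1 SSAA replicate 4 (-0.25).

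At 0.5 h, 3 were lower and 1 higher (15.6% and 16.7%). Dusp6 differed by -0.90 (adjusted p = 2.61e-15). Dusp4 was 11.30 to 11.56 (median 11.43) against 10.69 to 11.004 and differed by 0.55 (adjusted p = 1.49e-09), and both calls held against either set of WT replicates. Dusp2 differed by 0.0076 against replicates 4 to 6 and by -1.04 against replicates 7 to 9, and Dusp5 by -0.26 (adjusted p = 0.128) and -1.55. Dusp1 differed by 0.084, by 0.37 (adjusted p = 0.00128) against replicates 4 to 6, and by -0.20 against replicates 7 to 9.

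Compared directly with D270A cells at 1 h, Nfkb1[SS/AA] cells had 3 members lower and 3 higher (24.6% and 22.7% of all genes). Dusp2 was lower, with a difference of -1.22 (SE 0.11, adjusted p = 2.04e-16), Dusp5 by -0.98, and Dusp6 by -0.54, whereas Dusp1 was higher by 0.53 and Dusp4 by 0.47.

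Dusp6 was lower after 40 and 70 min of PD0325901 without LPS than after 10 min, and Dusp4 was lower after 70 min. Dusp6 was 9.64, 9.69, and 9.75 after 10 min, 8.56, 8.58, and 8.58 after 40 min, and 7.46, 7.58, and 7.79 after 70 min. None of these groups overlapped. The difference from 10 min was -1.12 (SE 0.12, adjusted p = 3.32e-12) at 40 min and -2.08 (SE 0.12, adjusted p = 6.35e-28) at 70 min. Dusp4 was 9.54, 9.60, and 9.71 after 10 min and 8.46, 8.53, and 8.54 after 70 min, a difference of -1.11 (SE 0.10, adjusted p = 1.86e-15), and at 40 min it differed by -0.30 (adjusted p = 0.0986), or with the replicate block by -0.30 (adjusted p = 0.0368). Deviations of same-numbered libraries correlated at -0.12 to 0.19 between 10 and 40 min, so the block rests on numbering alone. The summed neutrophil genes were 7.29 to 8.08 after 10 min, 8.43 to 8.79 after 40 min, and 8.43 to 8.47 after 70 min, and their part in these differences was not tested.

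Thus 1 of 7 was lower at 40 min and 2 at 70 min (2.26% and 3.47% of all genes). Dusp5, an ERK-induced gene like Dusp4 and Dusp6, differed at 70 min by -0.24 (95% confidence interval -0.64 to 0.17). No untreated or DMSO libraries of 40 or 70 min were compared. Between 10 min of PD0325901 and 10 min of DMSO, limma called 0 members, and 0 had an unadjusted p below 0.05.

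LPS still raised most members under PD0325901, compared with the inhibitor alone for the same time. At 0.5 h 5 of 7 were higher (9.38% of all genes) and at 1 h 6 (21.9%). Dusp4 at 1 h was 11.74 to 11.92 (median 11.83), a difference of 3.31 (SE 0.089, adjusted p = 4.24e-56) from the low values after 70 min of inhibitor. This response exceeded that of untreated cells by 1.15 (SE 0.12, adjusted p = 7.37e-14). The level reached differed from that of untreated cells with LPS by -0.12 (95% confidence interval -0.26 to 0.028), and by -0.33 (adjusted p = 0.000621) against WT replicates 4 to 6.

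Dusp6 with PD0325901 and 1 h of LPS was 7.50 to 7.69 (median 7.58), and the difference from the inhibitor alone was -0.027 (95% confidence interval -0.24 to 0.18). At 0.5 h Dusp6 was 9.31 to 9.44 (median 9.41), above the inhibitor alone by 0.82 (SE 0.10, adjusted p = 4.79e-10). Relative to untreated cells, 1 member responded less to 1 h of LPS under the inhibitor and 2 differed upward (2.48% and 1.10% of all genes). Dusp2 differed by -1.61 (SE 0.18, adjusted p = 4.45e-12), and Dusp6, which fell in untreated cells, by 1.25 (SE 0.14, adjusted p = 2.45e-12). Dusp5 differed by -0.65 (adjusted p = 0.11), by -0.66 (adjusted p = 0.0123) with the replicate block, and by -0.90 (adjusted p = 0.00114) against WT replicates 4 to 6 and -0.40 against replicates 7 to 9. Deviations of same-numbered libraries correlated at -0.27 to -0.029 between the PD0325901 groups of this response, so their block rests on numbering alone.

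**Figure D3:**
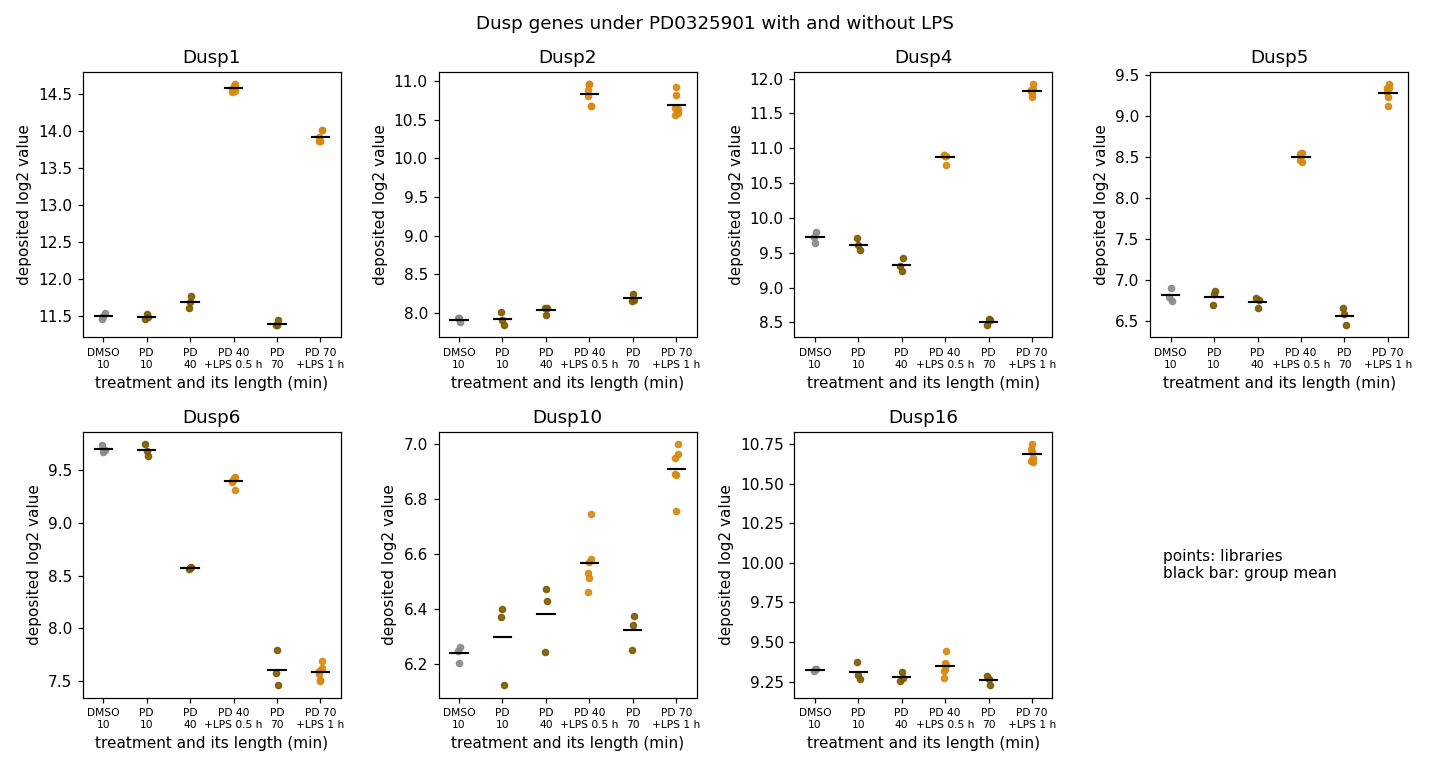
Deposited log2 value of each gene (vertical axis) after DMSO or PD0325901 alone for the minutes given, or PD0325901 with LPS (horizontal axis), with a point per library and a bar at the group mean. The mean of Dusp6 goes from 9.69 after 10 min to 7.61 after 70 min of PD0325901 alone, and is 7.58 with 1 h of LPS.

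Against untreated cells with 1 h of LPS, 4 members were lower and 2 higher under PD0325901 (19.3% and 16.4% of all genes). Dusp5 was 9.12 to 9.40 (median 9.32), a difference of -1.43 (SE 0.14, adjusted p = 4.04e-14). Dusp2 was 10.57 to 10.92 (median 10.64), a difference of -1.21 (SE 0.11, adjusted p = 5.32e-16). Dusp6 differed by -1.07 and Dusp1 by -0.57, and none of these 4 genes overlapped with untreated cells. Dusp10 was 6.76 to 6.999 (median 6.92), above every untreated library, by 0.54 (SE 0.083, adjusted p = 8.02e-08). Dusp16 was higher by 0.18 (adjusted p = 0.0145), a call lost with the PD0325901 pairs averaged (adjusted p = 0.0757) and against WT replicates 4 to 6 (0.073, adjusted p = 0.443).

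At 0.5 h, 3 were lower and 1 higher (15.0% and 14.5%). Dusp6 was lower against either set of WT replicates (-0.75 and -0.83), as was Dusp2 (-0.25 and -1.29). Dusp5 differed by -0.077 (adjusted p = 0.685) against replicates 4 to 6 and by -1.37 against replicates 7 to 9. Dusp1 was called against replicates 7 to 9 (-0.38) but not against 4 to 6 (0.19). Dusp10 was higher by 0.29, a call lost against replicates 7 to 9 (0.18).

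DMSO for 10 min also differed from untreated cells, with 2 of 7 lower (11.1% of all genes). Dusp1 was 11.46, 11.50, and 11.54 and differed by -0.37 (adjusted p = 0.00623). Dusp5 was 6.74, 6.79, and 6.90 and differed by -0.53 (adjusted p = 0.0211), a call lost without WT replicate 9 or DMSO replicate 2 or 3 and against WT replicates 4 to 6 (-0.25, adjusted p = 0.207), while the difference from replicates 7 to 9 was -0.80. Dusp6 differed by -0.23 and was called against replicates 7 to 9 (-0.38). The summed neutrophil genes were 7.54 to 8.25 in DMSO libraries and 6.36 to 7.19 in WT libraries without LPS, and their part in these differences was not tested. Dusp5 without LPS had means of 7.34 in WT and 7.54 in D270A cells, and of 6.60 to 6.88 in the groups of the other experiments at 0 h or after 10 min of DMSO or PD0325901.

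Compared directly with D270A cells at 1 h, cells under PD0325901 had 3 members lower and 3 higher (22.2% and 18.5% of all genes). Dusp6 was lower, with a difference of -0.49 (SE 0.085, adjusted p = 2.69e-06), and Dusp4 was higher by 0.40 (SE 0.073, adjusted p = 4.68e-06). Dusp5 was lower, with a difference of -0.37 (adjusted p = 0.0359), a call lost without D270A replicate 1, 2 or 5 or PD0325901 replicate 1, 3 or 4 and with no filter on low values (adjusted p = 0.0533). Dusp2 was lower, with a difference of -0.35 (adjusted p = 0.00844). With the PD0325901 pairs averaged, Dusp5 (adjusted p = 0.128) and Dusp2 (adjusted p = 0.0505) were not called.

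RSKi47 had another pattern, with Dusp4 above untreated cells at every time. Counts of members were near the background: 2 lower and 2 higher without LPS (26.3% and 26.8% of all genes) and 3 and 1 at 1 h (26.3% and 26.5%). There were 3 and 3 at 0.5 h (24.5% and 23.7%) and 3 and 2 at 2 h (24.6% and 27.5%). The summed fibroblast and neutrophil genes given above ranged higher in these libraries. Leaving out RSKi47 replicate 4, which stood far from its group, at every time ended no call and gained those of Dusp1 without LPS, given below, and of Dusp6 at 2 h (0.28, adjusted p = 0.0154). With replicate 4 kept, Dusp6 at 2 h differed by 0.22 (adjusted p = 0.0721), and was called with only the groups compared in the fit (adjusted p = 0.0487).

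Dusp4 was 10.14, 10.16, 10.27, and 10.35 without LPS, a difference of 0.45 (SE 0.081, adjusted p = 1.81e-06). At 2 h it was 10.46, 10.53, 10.54, and 10.55, a difference of 0.54 (SE 0.089, adjusted p = 2.52e-07). It did not overlap with untreated cells at these times or at 0.5 h (0.43). At 1 h the groups overlapped and the difference was 0.35 (adjusted p = 0.000145), or 0.14 (adjusted p = 0.196) against WT replicates 4 to 6.

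Dusp6 was 8.87, 9.25, 9.42, and 9.49 without LPS, a difference of -0.67 (SE 0.096, adjusted p = 3.99e-09), and 8.77, 8.91, and 9.01 at 0.5 h, a difference of -1.29 (SE 0.10, adjusted p = 6.46e-19). Both groups lay below untreated cells. At 1 h it differed by -0.11 (adjusted p = 0.318), by -0.32 (adjusted p = 0.0117) against WT replicates 7 to 9, and by -0.28 (adjusted p = 0.0132) without RSKi47 replicate 1. Dusp1 at 1 h was 14.16, 14.23, 14.23, and 14.67 and differed by -0.18 (adjusted p = 0.11), or by -0.29 (adjusted p = 0.0119) without replicate 1. Without LPS, Dusp1 differed by -0.21 (adjusted p = 0.0557), and was called against WT replicates 7 to 9 (-0.28), after centring on library medians (adjusted p = 0.048) or quantile normalization (-0.27), with only the groups compared (adjusted p = 0.0121), and without WT replicate 5 or 6 or RSKi47 replicate 4. Dusp5 differed without LPS by -0.72 (adjusted p = 9.36e-05), or by -0.45 against replicates 4 to 6.

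Dusp2 under RSKi47 was 10.67, 10.93, 11.04, and 11.39 at 1 h, a difference of -0.90 (SE 0.13, adjusted p = 2.06e-09), and 10.60, 10.95, 11.01, and 11.18 at 2 h, a difference of -1.47 (SE 0.14, adjusted p = 3.04e-16). Dusp1 was 11.73, 12.44, 12.45, and 12.50 at 2 h, a difference of -1.32 (SE 0.10, adjusted p = 7.34e-20). All of these lay below untreated cells. Dusp5 at 1 h was 9.86, 9.93, 10.03, and 10.84, a difference of -0.55 (adjusted p = 0.00266), and replicate 1 overlapped with untreated cells. Dusp16 was lower at 2 h, with a difference of -0.42 (adjusted p = 9.07e-07). At 1 h it differed by -0.20 (adjusted p = 0.008), or by -0.098 (adjusted p = 0.282) against WT replicates 7 to 9.

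At 0.5 h under RSKi47, Dusp1, Dusp2, and Dusp5 differed by 0.0072, 0.41, and 0.10 against WT replicates 4 to 6 and by -0.57, -0.63, and -1.19 against replicates 7 to 9, so no direction is given for them. The count of 3 lower at this time, made with all WT libraries, includes Dusp1 and Dusp5. The LPS response at 1 h differed downward for 2 members and upward for 1 (3.27% and 2.26% of all genes). Dusp2 differed by -0.97 (SE 0.18, adjusted p = 4.88e-05). Dusp16 differed by -0.45 and Dusp6 by 0.56, and against WT replicates 7 to 9 by -0.28 (adjusted p = 0.27) and 0.51 (adjusted p = 0.0733). With only the groups compared, Dusp6 was not called (adjusted p = 0.208).

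With the inhibitors compared directly at 1 h of LPS, PD0325901 had 5 members lower and 2 higher than RSKi47 (28.6% and 25.3% of all genes). Dusp6 differed by -0.95 (SE 0.096, adjusted p = 6.81e-15), Dusp5 by -0.87, and Dusp4 by -0.47. Dusp10 was higher by 0.49 (adjusted p = 5.23e-06). Dusp2 differed by -0.31 (adjusted p = 0.0289), a call lost without PD0325901 replicate 2 or 3 or RSKi47 replicate 1 or 2, the value being -0.18 without RSKi47 replicate 1, and with the PD0325901 pairs averaged (adjusted p = 0.0832).

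**Figure D4:**
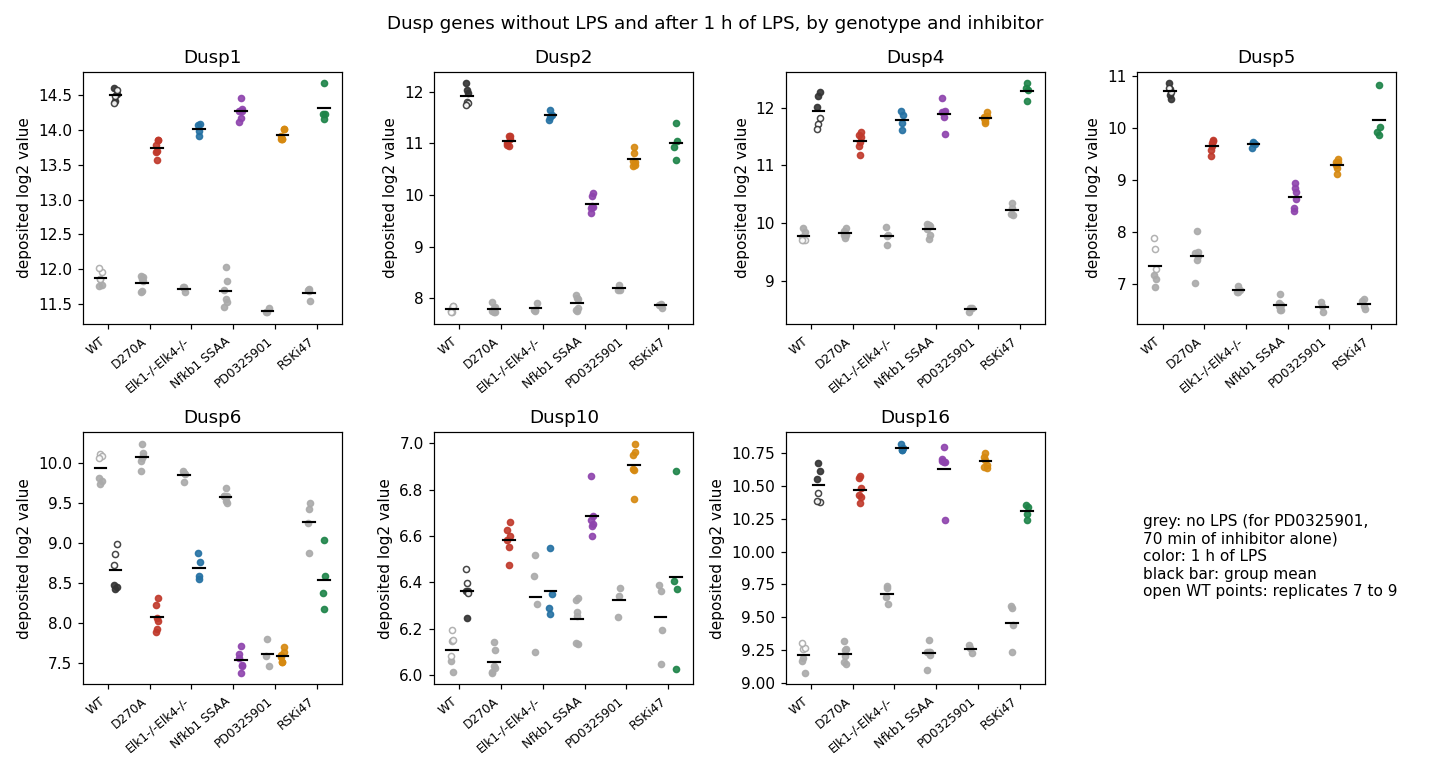
Deposited log2 value of each gene (vertical axis) without LPS (grey, for PD0325901 after 70 min of inhibitor alone) and after 1 h of LPS (color) by genotype or inhibitor (horizontal axis), with a point per library and a bar at the group mean. Dusp2 after LPS has its highest mean in WT cells (11.91) and its lowest in Nfkb1 SSAA cells (9.83).

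Across all 25 groups, Dusp1 had its lowest mean after 70 min of PD0325901, 11.40 ± 0.036 (SD, n = 3), and its highest in Elk1-/-Elk4-/- cells at 0.5 h, 14.90 ± 0.04 (SD, n = 4). Dusp2 ran from 7.79 ± 0.053 (SD, n = 6) in WT cells without LPS to 12.40 ± 0.28 (SD, n = 4) at 2 h. Dusp4 and Dusp5 were also lowest after 70 min of PD0325901. Dusp4 ran from 8.51 ± 0.046 (SD, n = 3) there to 12.30 ± 0.13 (SD, n = 4) under RSKi47 at 1 h, and Dusp5 from 6.56 ± 0.11 (SD, n = 3) to 10.72 ± 0.11 (SD, n = 6) in WT cells at 1 h.

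Dusp6 ran from 7.22 ± 0.25 (SD, n = 6) in D270A cells at 2 h to 10.19 ± 0.057 (SD, n = 6) in WT cells at 0.5 h. Dusp10 ran from 5.49 ± 0.13 (SD, n = 4) in WT cells at 2 h to 6.91 ± 0.085 (SD, n = 6) under PD0325901 with 1 h of LPS, the narrowest range of the 7, and Dusp16 from 9.21 ± 0.084 (SD, n = 6) in WT cells without LPS to 11.27 ± 0.062 (SD, n = 4) in Elk1-/-Elk4-/- cells at 2 h. Many neighbors in these orders did not differ beyond their spread. Of 24 steps between neighboring means, 15 for Dusp1, 17 for Dusp2, 12 for Dusp4, 17 for Dusp5, 15 for Dusp6, 20 for Dusp10, and 19 for Dusp16 were within the larger SD of the neighbors.

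The genes whose group means were most like a member were taken by Pearson correlation over the 25 groups, a description only, since groups of 1 arm share an experiment. For Dusp1 they were Zfp36 (r = 0.968), Ier3, and Junb, and for Dusp2 Nfkbia (r = 0.963), Gadd45b, and Socs3. For Dusp4 they were Btg1 (r = 0.928), Trib1, and Gdf15, and for Dusp5 Trib1 (r = 0.959), Btg1, and Nfkbid. Dusp16 had Stx11 (r = 0.983), Nod2, and Cd40, and Dusp10 had Stil (r = 0.876), Depdc5, and Kif13a. Among the members, Dusp4 and Dusp5 were most alike (r = 0.888), and Dusp6 and Dusp16 ran opposite to each other (r = -0.798).

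Of 18 other phosphatases of the DUSP family or of MAP kinases, 16 were tested. In WT cells at 1 h of LPS, 5 were lower and 4 higher (23.0% and 23.8% of all genes), with a median difference of -0.0029. Dusp8, which encodes a JNK and p38 phosphatase like DUSP10 and DUSP16, rose by 2.06 (adjusted p = 3.52e-25), and Dusp14 rose by 1.17. Ptpn7, which encodes a tyrosine phosphatase of ERK and p38, differed by -0.37, and Dusp9, which encodes an ERK phosphatase related to DUSP6, by -0.20 (adjusted p = 0.00957).

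In D270A cells at 1 h, 2 of these 16 were lower, Dusp7 and Ppm1a (4.64% of all genes). Dusp7, which encodes the third cytoplasmic ERK phosphatase beside DUSP6 and DUSP9, differed by -0.60 (adjusted p = 1.43e-10) there. After 70 min of PD0325901 Dusp7 differed from 10 min by -0.40 (adjusted p = 8.13e-05), 1 of 16 being lower and 1, Dusp8, higher (3.47% and 2.62% of all genes). Against WT cells at 1 h of LPS, 3 of 16 were lower and 3 higher in Elk1-/-Elk4-/- cells, 4 and 7 in Nfkb1[SS/AA] cells, 3 and 2 under PD0325901, and 4 and 5 under RSKi47. In the same comparisons, of all genes 26.2% were lower and 27.2% higher in Elk1-/-Elk4-/- cells, 21.9% and 20.5% in Nfkb1[SS/AA] cells, 19.3% and 16.4% under PD0325901, and 26.3% and 26.5% under RSKi47. Dusp7 was lower in Nfkb1[SS/AA] cells (-0.38) and under PD0325901 (-0.52), and higher in Elk1-/-Elk4-/- cells (0.23).

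Of 14 genes of MAP kinases and the kinases that activate them, 12 were tested, and in WT cells at 1 h 5 were higher and 1 lower (23.8% and 23.0% of all genes). Map2k3, which encodes an activator of p38, rose by 0.85 (adjusted p = 8.74e-25), Mapk8, which encodes JNK1, by 0.61, and Map2k6 by 0.36. In D270A cells at 1 h, 1 of 12 was lower (4.64% of all genes), Map2k3, with a difference of -0.46 (adjusted p = 2.51e-12). At the same time 5 were lower and 3 higher in Elk1-/-Elk4-/- cells, 3 and 1 in Nfkb1[SS/AA] cells, 2 and 1 under PD0325901, and 6 and 1 under RSKi47, with Map2k3 lower in each. The shares of all genes called in these comparisons are those given for the other phosphatases.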

How the data were processed

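RNA from 119 BMDM libraries was sequenced. Per the methods and processing notes, the authors mapped single-end reads to mm10 with STAR and counted them per gene with RSEM. The notes name STAR 2.5.1b and RSEM 1.2.29, which differ from the versions in the methods. The deposited values, 1 table of 18098 genes, are on a log2 scale and normalized by the authors, with the transformation and the depth of each library not given in the sources used here. A value of 57.73 (Fosb, RSKi47 replicate 1 at 1 h) was set to missing.

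Groups were compared with limma 3.58.1 (R 4.3.3), tested on simulated data. One fit held the 62 WT, D270A, and Elk1-/-Elk4-/- libraries (11884 genes that reached 10 on the linear scale in 4 libraries). The other held all 119 (11971 genes, 3 libraries) and gave every comparison with Nfkb1[SS/AA] or an inhibitor and every difference between responses. The members and lists were chosen with earlier results of these data known. Named beside the members are Dusp7, Dusp8, and Dusp9, the 3 genes of each list that changed most at 1 h in WT cells, and the 3 genes most like each member, which for Dusp6 are not reported here. Ppm1a was named after its value was seen. Labels do not tie libraries to mice, so p values measure the spread between libraries, which may be technical. Same-numbered libraries deviated together in 20 of 42 pairs of groups within an arm, all those of WT cells among them, and in 1 of 210 between arms, so blocked values are given within arms. No pair of DMSO or PD0325901 groups was among the 20, so blocked values of that arm rest on numbering alone. Deviations of the PD0325901 libraries with LPS correlated at -0.0346 to 0.144 within the pairs and at most -0.0861 with other libraries of the group.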

Additional observations from a re-analysis of the deposited data

Results flagged for a closer look

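A library far from the others of its group was found in 8 of 140 checks of a gene in a group of 4 to 10 libraries, and chance gives about 1 in 20. Dusp1 was 14.67 in RSKi47 replicate 1 at 1 h, and Dusp5 was 10.84 in the same library. Dusp1 was 11.73 in RSKi47 replicate 4 at 2 h, and Dusp2 was 11.27 in D270A replicate 4 at 0.5 h. Under PD0325901 with 0.5 h of LPS, Dusp4 was 10.77 in replicate 5 and Dusp6 was 9.31 in replicate 2. In Nfkb1[SS/AA] cells at 1 h, Dusp10 was 6.86 in replicate 6 and Dusp16 was 10.24 in replicate 2.

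The response to 1 h of LPS differed from that of WT cells, by a limma test of the difference itself, in 14 of 35 cases. In D270A cells these were Dusp1 (-0.69), Dusp2 (-0.87), Dusp4 (-0.57), Dusp5 (-1.26), and Dusp6 (-0.72). In Nfkb1[SS/AA] cells they were Dusp2 (-2.19), Dusp5 (-1.30), and Dusp6 (-0.77). Under PD0325901 they were Dusp2 (-1.61), Dusp4 (1.15), and Dusp6 (1.25), and under RSKi47 Dusp2 (-0.97), Dusp6 (0.56), and Dusp16 (-0.45). All share the WT libraries. Of all genes, 1.56% were called lower and 0.835% higher in D270A cells, and 1.05% and 0.476% in Elk1-/-Elk4-/- cells. The shares were 4.30% and 1.77% in Nfkb1[SS/AA] cells, 2.48% and 1.10% under PD0325901, and 3.27% and 2.26% under RSKi47. The response under PD0325901 was taken from the inhibitor alone for the same time. There Dusp4 and Dusp6 had lower means than in untreated cells without LPS (8.51 against 9.78 and 7.61 against 9.93).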

How the results depend on the processing

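Over the 7 genes and 39 comparisons, 272 of 273 values kept direction and call when libraries were centred on their medians, 267 after quantile normalization, 271 with a trend in limma, 267 with no filter on low values, 242 with only the groups compared in the fit, and 245 with the replicate block. A sign change of a value called in neither fit was counted as kept. No pseudocount was needed on the log2 scale. Without the depth of each library, low values cannot be weighed by reads.

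When a change of at least 1 was also required, the number of members called fell in 33 of 39 comparisons, in 28 of them by more than 1.5 times. Of the 28, it was 4 for WT at 2 h. It was 3 for WT at 2 against 1 h, Nfkb1[SS/AA] at 1 h, and PD0325901 at 1 h. It was 2 for RSKi47 at 2 h. It was 1 for D270A at 1 h, Elk1-/-Elk4-/- at 1 h, RSKi47 at 0.5 h, Nfkb1[SS/AA] against D270A cells at 1 h, and the D270A response. It was 0 in the rest. With only the groups compared, the number was 0 for D270A at 0.5 h, 2 for Elk1-/-Elk4-/- against D270A cells at 2 h, 2 for PD0325901 at 40 against 10 min, and 1 for the Elk1-/-Elk4-/- response. With the replicate block it was 2 for D270A without LPS (Dusp5 0.57 and Dusp6 0.25), 0 for DMSO, 2 for PD0325901 at 40 min, and 1 for the Elk1-/-Elk4-/- response. Numbers between arms mark no pairing. With the pairs of PD0325901 libraries averaged, 58 of 63 values kept direction and call. A call lost beside those given in the report was that of Dusp16 against RSKi47 at 0.5 h (-0.18, adjusted p = 0.0869).

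With WT replicates 4 to 6 and D270A replicates 1 to 3 the number was 1 without LPS and 0 at 0.5 h, and with WT replicates 7 to 9 and D270A replicates 4 to 6 it was 4 at 0.5 h. At 2 h the other set has a single WT library, and its differences were taken as values only. The sets of WT replicates as controls for the other arms were chosen after seeing the data. Against replicates 4 to 6 the number was 7 for Elk1-/-Elk4-/- at 0.5 h, 1 for Nfkb1[SS/AA] without LPS, 1 for DMSO, and 3 for the Elk1-/-Elk4-/- response, and against replicates 7 to 9 it was 1 for the RSKi47 response. Relative to the difference from all WT libraries, values reversed at 0.5 h only. Against replicates 4 to 6, Dusp1 (0.0072), Dusp2 (0.41), and Dusp5 (0.10) reversed under RSKi47 and Dusp2 (0.0076) in Nfkb1[SS/AA] cells. Against replicates 7 to 9, Dusp1 (-0.062), Dusp2 (-0.38), and Dusp5 (-0.52) reversed in Elk1-/-Elk4-/- cells. At 1 h, some values called against a single set had the other sign against replicates 7 to 9 than against 4 to 6. For Dusp4 these were 0.07 and -0.37 in Elk1-/-Elk4-/- cells, 0.17 and -0.27 in Nfkb1[SS/AA] cells, and 0.10 and -0.33 under PD0325901. For Dusp6 they were -0.17 and 0.24 in Elk1-/-Elk4-/- cells and -0.32 and 0.089 under RSKi47. The cause was not tested.

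Some calls counted in the report without a value were also lost when 1 library was left out. That of Dusp10 was lost at 2 h without WT replicate 4 or Elk1-/-Elk4-/- replicate 3 in Elk1-/-Elk4-/- cells and without RSKi47 replicate 3 under RSKi47. Between Elk1-/-Elk4-/- and D270A cells at 1 h, that of Dusp1 was lost without Elk1-/-Elk4-/- replicate 2 or 3 and that of Dusp10 without Elk1-/-Elk4-/- replicate 2, 3 or 4. At 2 h, that of Dusp4 was lost without D270A replicate 1 or Elk1-/-Elk4-/- replicate 2 or 3 and that of Dusp10 without D270A replicate 4, 5 or 6 or Elk1-/-Elk4-/- replicate 1, 2 or 4. Between Nfkb1[SS/AA] and D270A cells at 1 h, that of Dusp16 was lost without D270A replicate 4 or Nfkb1 SSAA replicate 1. At 0.5 h, that of Dusp1 in Elk1-/-Elk4-/- cells was lost without WT replicate 4, 5 or 6 or Elk1-/-Elk4-/- replicate 1, 2, 3 or 4, those under RSKi47 of Dusp1 without WT replicate 7, 8 or 9 or RSKi47 replicate 2 and of Dusp5 without WT replicate 9. Calls were gained for Dusp5 in D270A cells at 0.5 h without WT replicate 5 (-0.62), for Dusp10 there at 1 h without WT replicate 9 or D270A replicate 4, for Dusp5 in the PD0325901 response without WT replicate 9 (-0.75), and for Dusp4 between PD0325901 and D270A cells at 0.5 h without D270A replicate 3 or PD0325901 replicate 5. Leaving out single replicates gave 1 to 3 members called for Elk1-/-Elk4-/- without LPS, 2 to 4 for Elk1-/-Elk4-/- against D270A cells at 2 h, and 1 to 2 for DMSO, and reversed no value.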
